A study of Mus musculus with 6 samples.

Results

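Hypoxia-response genes are transcripts that animal cells typically make in larger amounts when oxygen is short. A set of 10 of them was followed by name in mouse liver, namely Hif1a, P4ha1, Slc2a1, Aldoa, Vegfa, Ndrg1, Bnip3, Pdk1, Egln3 and Ankrd37. Each was represented by the probe set that the array annotation assigns to its symbol alone and, where several did so, by the one with the highest mean signal over the 6 arrays. All 10 had such a probe set, out of 19938 genes in the table. Of these, 9 lay above the lowest value of the table on at least 1 array and were tested, among 10347 such genes, and Ankrd37 stood at that lowest value in every liver.

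The livers came from 3 TLR3-/- mice and 3 TLR3wt mice, all untreated, 3 months old, of the C57Bl/6 strain and bred in house under specific-pathogen-free conditions. TLR3 senses double-stranded RNA in endosomes, and the design sets untreated livers with and without its gene side by side. Total RNA of the whole liver was hybridised to 1 array per mouse, so cell types are mixed in each value, and fewer cells of a type cannot be told apart from less RNA per cell. The labels do not say how the TLR3-/- allele was made or whether the mice of the groups were littermates.

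The values are log2 RMA signals, in which a step of 1 is a doubling, with a floor of exactly 5. Each array had 15081 to 15226 probe sets above this floor. Hepatocyte markers were present in all livers, with 0 of 10 measured markers at the floor throughout, whereas all 9 neutrophil markers and 9 of 10 skeletal muscle markers were. The Tlr3 probe set itself was at the floor on all 6 arrays and cannot check the genotype labels. TLR3wt replicate 3 stood apart from TLR3wt replicates 1 and 2 on the second principal component of the tested probe sets (22.2% of the variance), with scores of 17.6 against -14.5 and -11.1, and several values are therefore given also without it.

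In a cell with enough oxygen, the prolyl hydroxylases of the EGLN family mark the subunit HIF-1alpha, the product of Hif1a, for binding by the VHL ubiquitin ligase and for degradation. When oxygen is short the subunit persists, pairs with ARNT, and binds a short DNA element in genes of glucose uptake, glycolysis, vessel growth and mitochondrial turnover. Because this control acts mostly on the protein, the Hif1a transcript is not a measure of HIF activity. In the liver, oxygen declines from the portal tract towards the central vein. P4ha1 encodes a catalytic subunit of collagen prolyl 4-hydroxylase, an oxygen-using enzyme of the endoplasmic reticulum that stabilises the collagen triple helix, and is itself a target of HIF.

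The promoters of the genes with groups most clearly apart are shown first, because the core of the hypoxia response element, ACGTG or GCGTG, can be read in them. Each is a RefSeq window on assembly GRCm38.p6 that spans 250 bases before and 50 after 1 annotated start, in the direction of the gene. Where a gene had several windows, the one with most cores is shown, or the first listed on ties. Capitals mark the core on either strand, so that CACGT and CACGC are the same cores read on the other strand. P4ha1 is given from chr10:59323046-59323345 (plus strand), Slc2a1 from chr4:119108495-119108794 (plus strand) and Aldoa from chr7:126799205-126799504 (minus strand).
P4ha1: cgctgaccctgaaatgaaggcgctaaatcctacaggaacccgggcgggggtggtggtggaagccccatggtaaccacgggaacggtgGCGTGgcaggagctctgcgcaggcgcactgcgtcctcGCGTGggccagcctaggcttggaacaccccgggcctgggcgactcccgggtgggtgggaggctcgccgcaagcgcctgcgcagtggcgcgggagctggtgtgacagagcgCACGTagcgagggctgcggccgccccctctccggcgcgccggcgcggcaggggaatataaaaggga
Slc2a1: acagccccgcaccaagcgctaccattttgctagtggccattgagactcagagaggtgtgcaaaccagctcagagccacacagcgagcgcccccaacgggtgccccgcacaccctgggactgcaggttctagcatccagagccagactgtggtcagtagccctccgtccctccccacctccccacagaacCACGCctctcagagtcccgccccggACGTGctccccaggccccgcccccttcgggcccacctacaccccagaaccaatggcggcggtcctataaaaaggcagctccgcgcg
Aldoa: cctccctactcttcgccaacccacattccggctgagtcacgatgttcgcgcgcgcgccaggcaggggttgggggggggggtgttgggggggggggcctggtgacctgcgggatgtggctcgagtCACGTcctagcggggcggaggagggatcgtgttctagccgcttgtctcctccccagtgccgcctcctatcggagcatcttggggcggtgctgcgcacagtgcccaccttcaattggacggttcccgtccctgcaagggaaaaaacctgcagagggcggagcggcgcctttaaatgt

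The P4ha1 window held 3 cores, which began at -163, -126 and -16 counted from the start site, the last of them on the other strand. In the Slc2a1 window there were 2, at -61 and -36, and in the Aldoa window 1, at -126. Of the 10 genes, 9 had promoter windows in the table, and each of the 9 had a core in at least 1 of its windows. Ndrg1 had no window, and Ankrd37 is among the 9 although it was not tested. That was also so for 67.6% of the 8330 tested genes with a window. Counted by window, 10 of the 13 windows (76.9%) held a core, against 61.9% of the windows of tested genes and 43.8% of all 32851 windows. Each core holds a CG pair, and the median count of CG pairs per window was 23, 20 and 7 in these sets. A pair of Aldoa windows overlap and hold the same ACGTG, which is counted in both. ACGTG alone was in 69.2% of the 13 windows and 25.7% of those of tested genes, and GCGTG alone in 46.2% and 50.3%. Bnip3 had 5 matches, and its ACGTG at -108 and -107 is the palindrome CACGTG counted once on each strand. Hif1a had 3 matches, 2 of them such a palindrome as well. Of the 3 Aldoa windows 1 held none, and so did 1 of the 2 windows each of Vegfa and Pdk1. These matches describe the letters in the windows, and binding was not measured.

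P4ha1 had the lowest signal relative to the TLR3wt livers among the 9 measured genes. It was 6.22, 6.37 and 6.14 in the TLR3-/- livers, against 7.13, 7.82 and 6.84 in the TLR3wt livers (log2 signal, replicates 1 to 3). All TLR3-/- livers lay below all TLR3wt livers, with a gap of 0.47 between the nearest of them, and the TLR3wt livers varied more among themselves than the TLR3-/- livers did. The means were 6.24 ± 0.12 and 7.26 ± 0.51 (SD, n = 3 each), a log2 difference of -1.02 (SE 0.25, 95% confidence interval -1.62 to -0.42), or 2.03-fold lower in TLR3-/-. The difference did not pass the adjustment over 16639 probe sets (limma adjusted p = 0.174, unadjusted p = 0.00555). Leaving out 1 mouse at a time gave differences of -1.23 to -0.74, with the smallest size without TLR3wt replicate 2, the liver with the highest signal.

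Across the 9 measured genes, 0 passed limma at an adjusted p of 0.05, where 0.186% of all tested probe sets did so (31 of 16639), and 0 passed in each of the 15 alternative fits. An unadjusted p under 0.05 was found for 3 of the genes, P4ha1 and Aldoa with TLR3-/- lower and Slc2a1 with TLR3-/- higher, as for 14.5% of the probe sets (9.21% with TLR3-/- higher and 5.25% lower). The groups did not overlap in 4 of the 9 genes, 2 with TLR3-/- higher and 2 with TLR3-/- lower. Non-overlap occurred in 20.1% of the tested probe sets, 13.0% with TLR3-/- higher and 7.04% with TLR3-/- lower, and in 22.7% of the tested genes when 1 probe set stood for each. The mean was higher in TLR3-/- for 6 genes and lower for 3, while 60.9% of all tested genes had higher means. The median log2 difference was 0.12 beside 0.03 over all tested genes. The median was 0.01 without TLR3-/- replicate 1.

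**Figure D1:**
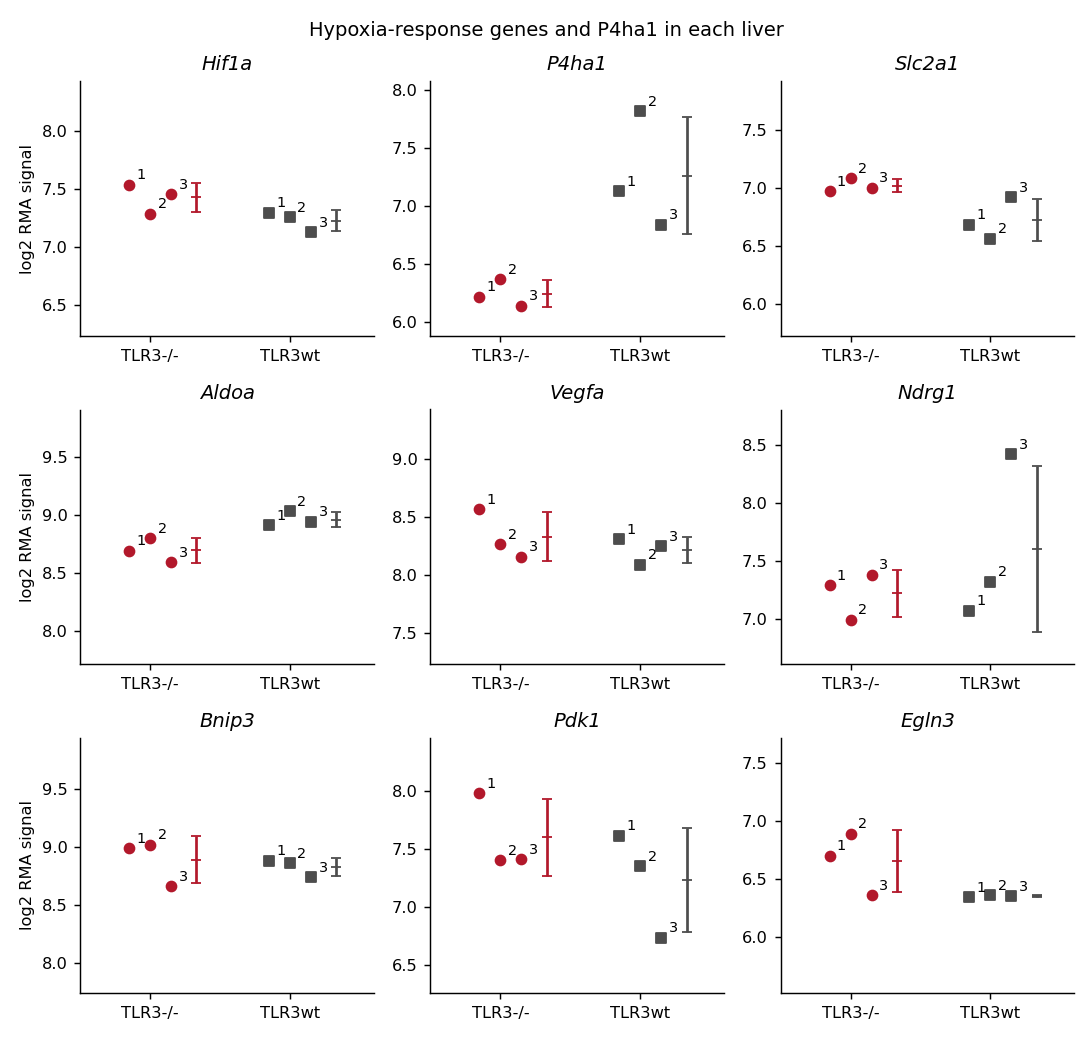
Log2 RMA signal (vertical axis) of the 9 measured genes in each of 3 TLR3-/- livers (red circles) and 3 TLR3wt livers (grey squares), numbered by replicate, with the group mean ± SD at the right of the points; all panels have the same vertical span. P4ha1 and Aldoa are lower in all 3 TLR3-/- livers than in any TLR3wt liver, Slc2a1 is higher, and TLR3wt replicate 3 is far above the other livers in Ndrg1 and below them in Pdk1.

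A pair of genes of glucose handling had groups apart, in opposite directions. Aldoa encodes aldolase A, a glycolytic enzyme. Its signal was 8.69, 8.80 and 8.59 in TLR3-/- livers, against 8.91, 9.03 and 8.94 in TLR3wt livers, so the TLR3-/- livers were all lower, by at least 0.12. The log2 difference was -0.27 (SE 0.07, 95% confidence interval -0.45 to -0.09), which is 1.21-fold lower, with limma adjusted p = 0.202. It varied between -0.32 and -0.22 when 1 mouse was left out. Of the markers of skeletal muscle, another rich source of aldolase A, only Acta1 was above the floor, at 5.14 to 5.26 in TLR3-/- livers, against 5.20 to 5.31 in TLR3wt livers.

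Slc2a1 encodes GLUT1, a glucose transporter. It was 6.97, 7.08 and 7.00 in the TLR3-/- livers, against 6.68, 6.56 and 6.92 in the TLR3wt livers. The groups were apart by 0.05 only, since TLR3wt replicate 3 came close to the TLR3-/- range. The log2 difference was 0.30 (SE 0.10, 95% confidence interval 0.05 to 0.54), 1.23-fold higher, with limma adjusted p = 0.275, and without TLR3wt replicate 3 it was 0.40 (limma adjusted p = 0.163). Slc2a2, the main glucose transporter gene of hepatocytes, overlapped between the groups (log2 difference 0.21, or -0.06 without TLR3wt replicate 3), and Slc2a3 was at the floor in all livers.

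The sensor and the subunit of the oxygen pathway had higher means in TLR3-/- livers, without passing the test. Egln3, a prolyl hydroxylase that is itself a HIF target, was 6.70, 6.89 and 6.36 in TLR3-/- livers, against 6.34, 6.36 and 6.35 in TLR3wt livers. TLR3-/- replicates 1 and 2 were above all TLR3wt livers, and TLR3-/- replicate 3 exceeded the highest TLR3wt liver by 0.0067 only. The log2 difference was 0.30 (SE 0.13, 95% confidence interval -0.02 to 0.63; limma adjusted p = 0.370). It was 0.18 without TLR3-/- replicate 2 and 0.45 without TLR3-/- replicate 3. Hif1a was 7.54, 7.29 and 7.46 in TLR3-/- livers, against 7.30, 7.26 and 7.13 in TLR3wt livers, and the groups overlapped through TLR3-/- replicate 2. Its log2 difference was 0.20 (SE 0.08, limma adjusted p = 0.353), between 0.15 and 0.27 without 1 mouse.

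In Ndrg1 and Pdk1 the difference depended on single livers. Ndrg1, a stress-responsive gene of the NDRG family, was 7.29, 6.99 and 7.38 in TLR3-/- livers, against 7.07, 7.32 and 8.42 in TLR3wt livers. The groups overlapped, and TLR3wt replicate 3 stood far above the other 5 livers. The log2 difference was -0.38 (SE 0.35, limma adjusted p = 0.672) with that liver and 0.03 without it. Pdk1, the gene of a kinase that shuts pyruvate out of the citric acid cycle by inactivating pyruvate dehydrogenase, was 7.98, 7.40 and 7.41 in TLR3-/- livers, against 7.61, 7.35 and 6.73 in TLR3wt livers. Here TLR3-/- replicate 1 was the highest and TLR3wt replicate 3 the lowest of the 6. This gave a log2 difference of 0.37 (SE 0.26, limma adjusted p = 0.583), and 0.12 without TLR3wt replicate 3.

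Vegfa and Bnip3 showed the smallest differences among the measured genes. Vegfa, the vascular endothelial growth factor gene, was 8.57, 8.27 and 8.16 in TLR3-/- livers, against 8.31, 8.09 and 8.25 in TLR3wt livers. The groups overlapped, with a log2 difference of 0.12 (95% confidence interval -0.18 to 0.41, limma adjusted p = 0.714), and -0.00 without TLR3-/- replicate 1. Bnip3 encodes a mitochondrial outer membrane protein that promotes removal of mitochondria. It was 8.99, 9.02 and 8.66 in TLR3-/- livers, against 8.88, 8.86 and 8.74 in TLR3wt livers, again with overlap. Its log2 difference was 0.06 (95% confidence interval -0.21 to 0.33, limma adjusted p = 0.836), and -0.00 without TLR3-/- replicate 2.

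The place of the Bnip3 probe set in the array's numbering differs from that of the gene. Bnip3 lies on chromosome 7, but the 10 nearest named probe sets in the array's numbering belong to genes of chromosome 14, and whether it also reads a similar sequence elsewhere was not tested. The other probe set, whose 10 neighbours are all on chromosome 7, was 8.18, 8.06 and 7.94 in TLR3-/- livers, against 8.02, 8.01 and 7.67 in TLR3wt livers. It too overlapped between the groups, with a log2 difference of 0.16 (limma adjusted p = 0.590).

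Ankrd37, which encodes a small ankyrin-repeat protein induced through HIF in cultured cells, gave no comparison. Its probe set was at the floor of 5 on all 3 TLR3-/- and all 3 TLR3wt arrays, so neither a fold nor a bound can be given. The gene lies close to Tlr3 on chromosome 8, with 12 annotated genes between them in the GRCm38.p6 order, 5 of them protein-coding.

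**Figure D2:**
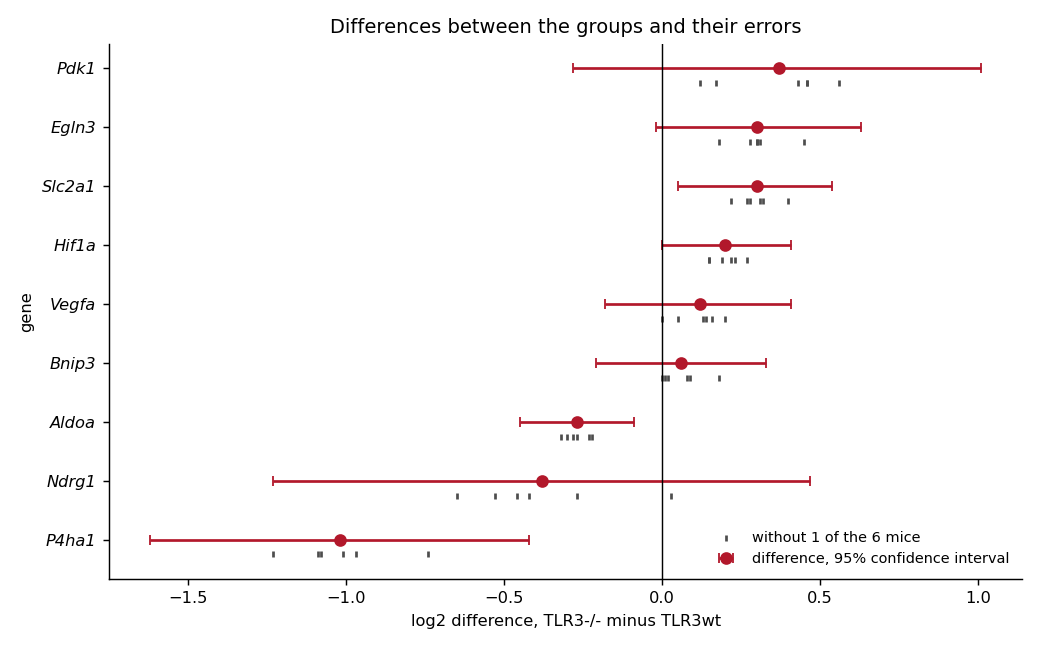
Log2 difference, TLR3-/- minus TLR3wt (horizontal axis), of the 9 measured genes, with its 95% confidence interval from limma (red), and the 6 differences obtained without 1 mouse each (grey ticks). The intervals of P4ha1, Aldoa and Slc2a1 exclude 0 before adjustment for the number of probe sets, and the ticks of Ndrg1, Vegfa and Bnip3 reach or cross 0.

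Genes that act on the HIF subunit, including the other prolyl hydroxylases, were then compared, as a list of HIF subunits, oxygen sensors and regulators. Of 16 measured genes 12 had higher means in TLR3-/- livers, while 60.9% of all tested genes had. By limma's adjusted p 0 passed, where 0.0870% of all tested genes did. An unadjusted p under 0.05 was found for 4, all with TLR3-/- higher (Hif1an, Cited2, Egln1 and Rbx1), against 15.7% of all tested genes, 10.1% with TLR3-/- higher and 5.56% lower. The groups were apart in 7 genes, all with TLR3-/- higher, where 15.1% of all tested genes were apart in that direction. The median log2 difference was 0.09 beside 0.03 over all tested genes. It was 0.06 beside 0.01 after quantile normalisation again and 0.06 beside 0.00 after centring the arrays.

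Among the genes of this list, 3 that restrain HIF had the widest gaps between the groups. Hif1an encodes the asparaginyl hydroxylase FIH, which blocks the contact of HIF-1alpha with coactivators. It was 6.47, 6.50 and 6.50 in TLR3-/- livers, against 6.29, 6.18 and 6.27 in TLR3wt livers (log2 difference 0.24, SE 0.05, limma adjusted p = 0.162). The TLR3-/- livers were nearly equal to each other and all above the TLR3wt livers. Cited2, a HIF-inducible protein that competes for the same coactivators, was 8.11, 8.58 and 8.49 in TLR3-/- livers, against 8.03, 7.83 and 7.92 in TLR3wt livers (log2 difference 0.47, SE 0.13, limma adjusted p = 0.217). Egln1, the main prolyl hydroxylase of HIF-1alpha, was 6.71, 6.91 and 6.81 in TLR3-/- livers, against 6.59, 6.41 and 6.61 in TLR3wt livers (log2 difference 0.28, SE 0.08, limma adjusted p = 0.235). In Cited2 the nearest livers of the groups were 0.08 apart, and in Egln1 0.10.

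The other 4 genes of this list with groups apart were Egln3 (above), Egln2, Eloc and Rbx1, of which the last 3 had log2 differences of 0.05, 0.15 and 0.13. Eloc and Rbx1 encode parts of the VHL ubiquitin ligase, and the nearest livers of the groups were 0.0071 apart in Egln2 and 0.0062 in Eloc. The Rbx1 and Cul2 probe sets, like that of Bnip3, have neighbours from another chromosome than the gene. Cul2, Vhl and Elob, which encode further parts of the ligase, overlapped between the groups (log2 differences 0.17, 0.03 and -0.02). Cul2 was at 0.11 without TLR3-/- replicate 2, and Vhl turned to -0.06 without TLR3wt replicate 3. Elob was between -0.06 and 0.03 without 1 mouse. Eloc, Rbx1, Cul2, Vhl and Elob were named after their values had been seen. Epas1, which encodes HIF-2alpha, overlapped with a log2 difference of -0.10, and 0.00 without TLR3wt replicate 3. Arnt, the partner of both HIF-alpha proteins, had a log2 difference of 0.03, equal to the median of all tested genes, and -0.00 after quantile normalisation again or centring. Hif3a was at the floor in all livers.

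**Figure D3:**
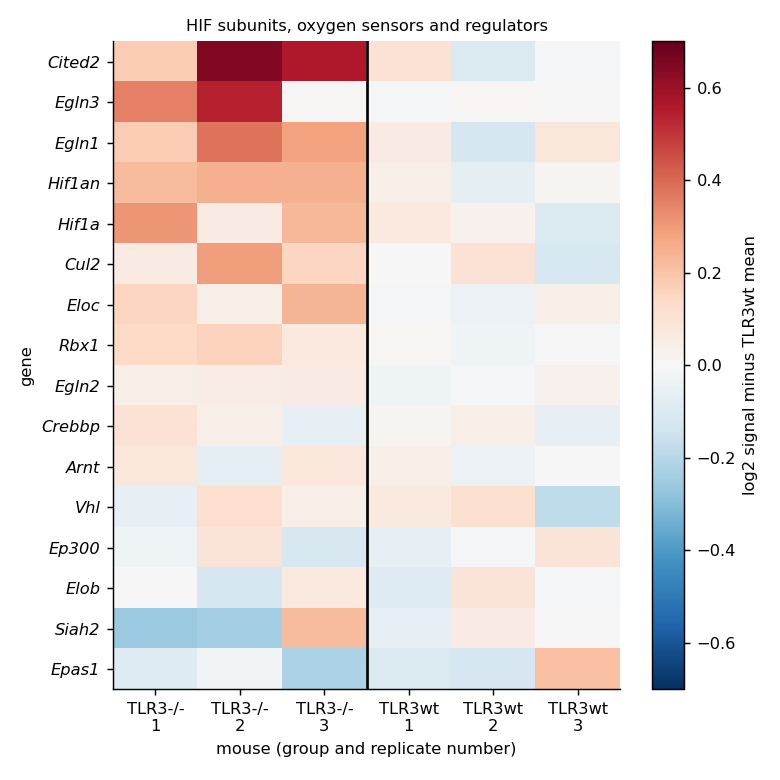
Log2 signal minus the TLR3wt mean of the gene (colour scale) for the 16 measured HIF subunits, oxygen sensors and regulators (rows, ordered by the difference between the groups) in each liver (columns, 3 TLR3-/- left of the line, 3 TLR3wt right of it). Cited2, Egln1 and Hif1an are red in all 3 TLR3-/- columns, Egln3 in replicates 1 and 2 only, and Epas1 is highest in TLR3wt replicate 3.

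Genes of collagen hydroxylation and crosslinking, the pathway of P4ha1, had smaller differences than P4ha1 itself. Of 10 measured genes 7 had lower means in TLR3-/- livers, as 39.1% of all tested genes had, and the median log2 difference was -0.07. By limma's adjusted p 0 passed, and 2 had an unadjusted p under 0.05 with TLR3-/- lower (P4ha1 and Serpinh1), against 5.56% of all tested genes. P4ha2, the other measured catalytic subunit, was 5.10, 5.49 and 5.19 in TLR3-/- livers, against 5.16, 5.50 and 5.28 in TLR3wt livers. The groups overlapped (log2 difference -0.05, between -0.17 and 0.04 without 1 mouse). P4hb, the partner subunit of the enzyme and a disulfide isomerase, was 11.15, 11.30 and 11.19 in TLR3-/- livers, against 11.12, 11.17 and 11.21 in TLR3wt livers (log2 difference 0.04). P4ha3 and the lysyl hydroxylase gene Plod2 were at the floor in all livers.

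Serpinh1, the gene of a collagen chaperone, was the other gene of this list with a clear separation. It was 5.29, 5.46 and 5.22 in TLR3-/- livers, against 5.62, 5.57 and 5.77 in TLR3wt livers (log2 difference -0.33, SE 0.09, limma adjusted p = 0.199). The TLR3-/- livers were lower by at least 0.11, at signals close to the floor. Crtap, a subunit of the collagen prolyl 3-hydroxylase complex, was at the floor in all TLR3-/- livers and at least 1.06-fold lower there. Plod3 had a log2 difference of -0.20, with overlap, and -0.12 without TLR3wt replicate 3.

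Markers of other liver cells were set beside P4ha1. Of 15 macrophage markers, which include those of Kupffer cells, 14 had lower values in every TLR3-/- liver than in any TLR3wt liver, with Cd163 as the exception and 0 at the floor on all arrays. By limma 0 of the 15 passed the adjusted p, and 14 had an unadjusted p under 0.05 with TLR3-/- lower. Of all tested genes, 7.62% were apart and 5.56% had an unadjusted p under 0.05 in that direction. Their summed linear signal was 1418 to 2174 in TLR3-/- livers, against 2695 to 3675 in TLR3wt livers, and was highest in TLR3wt replicate 2, as P4ha1 was. The sum was lowest in TLR3-/- replicate 2, where P4ha1 was the highest of the TLR3-/- livers. Stellate cell and fibroblast markers summed to 1848 to 1978 in TLR3-/- livers, against 1740 to 1899 in TLR3wt livers, with 1 of 12 at the floor throughout (Des). Dcn, the highest signal of that list, weighs most in this sum (log2 difference 0.17). By gene, 5 had higher and 6 lower means in TLR3-/- livers, with a median log2 difference of -0.00. The groups were apart in 4 of the 11 measured genes of that list, 1 with TLR3-/- higher and 3 lower, against 15.1% and 7.62% of all tested genes. An unadjusted p under 0.05 was found for 1 with TLR3-/- higher and 2 lower, against 10.1% and 5.56%. Pdgfra, a receptor gene of these cells, had a log2 difference of 0.34 (0.38 without TLR3wt replicate 3). The collagen genes Col1a1, Col1a2 and Col3a1 had -0.49, -0.28 and -0.55, which were -0.31, -0.13 and -0.34 without TLR3wt replicate 3. Endothelial markers summed to 1831 to 2190 in TLR3-/- livers, against 1778 to 2284 in TLR3wt livers. Of the 12 measured endothelial markers 7 had higher and 5 lower means in TLR3-/- livers. The groups were apart in 2, Pecam1 and Lyve1, both with TLR3-/- lower (log2 differences -0.24 and -0.56) and at an unadjusted p under 0.05. Of all tested genes, 7.62% and 5.56% were so in that direction. In Lyve1 the nearest livers of the groups were 0.0055 apart. The part of these cells in the P4ha1 difference was not tested.

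The genes with values most like P4ha1 were found by Pearson correlation over the 6 arrays, among 9091 other genes above the floor on all arrays. The correlation draws on the same 6 livers and on the difference between their groups, so it is a description. The 5 highest were Itga3 (r = 0.994), Rcan1 (0.986), Mfsd2a (0.985), Mbd1 (0.985) and Shld2 (0.984). Mfsd2a, which encodes a carrier of lysophosphatidylcholine, was 5.76, 5.86 and 5.67 in TLR3-/- livers, against 7.38, 8.28 and 6.37 in TLR3wt livers (log2 difference -1.58, SE 0.45, limma adjusted p = 0.212). Rcan1, which encodes a regulator of calcineurin, had a log2 difference of -0.45, Mbd1 of -1.02, Shld2 of -0.42 and Itga3 of -0.16. In all 5 the TLR3-/- livers lay below the TLR3wt livers, and TLR3wt replicate 2 was the highest and replicate 3 the lowest of the TLR3wt livers, as for P4ha1.

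**Figure D4:**
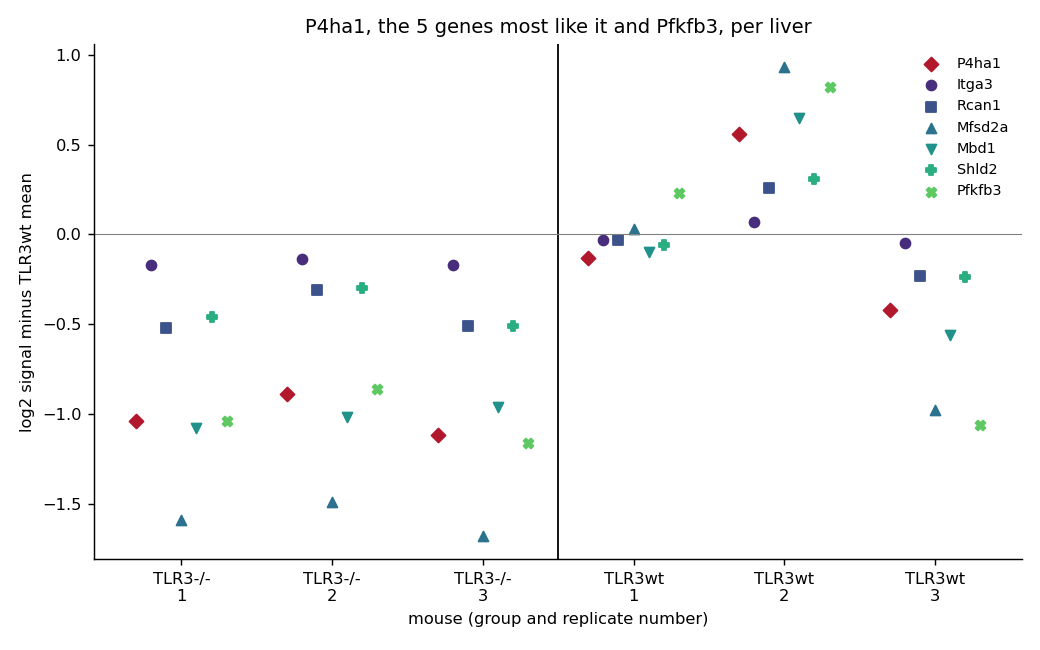
Log2 signal minus the TLR3wt mean of the gene (vertical axis) in each liver (3 TLR3-/- left, 3 TLR3wt right) for P4ha1 (red diamonds), the 5 genes with the highest correlation with it, and Pfkfb3. The TLR3-/- livers are below all TLR3wt livers for P4ha1 and the 5 genes, and Pfkfb3 in TLR3wt replicate 3 is at the level of the TLR3-/- livers.

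Glycolysis genes had mostly lower means in TLR3-/- livers. Among 17 measured genes of glucose uptake and glycolysis this held for 12 (median log2 difference -0.07), while 39.1% of all tested genes had lower means. None passed limma's adjusted p (3 at an unadjusted p under 0.05, Aldoa, Slc2a1 and Pfkfb2, against 15.7% of all tested genes), and the groups were apart in 4 genes with TLR3-/- lower, where 7.62% of all tested genes were, and in 1, Slc2a1, with TLR3-/- higher. The 4 were Aldoa, Pfkfb2, Pgk1 and Tpi1. Pfkfb2, one of the enzymes that set the level of fructose 2,6-bisphosphate, was 7.00, 7.15 and 6.86 in TLR3-/- livers, against 7.19, 7.46 and 7.18 in TLR3wt livers (log2 difference -0.27, or -0.18 without TLR3wt replicate 2, limma adjusted p = 0.338 with all mice). Pgk1 and Tpi1 had log2 differences of -0.11 and -0.07, and the Pgk1 probe set has neighbours from another chromosome than the gene. So have those of Pgam1 and Pkm, also counted as lower, and of Hk1, counted as higher. Hk2, counted as lower, was above the floor only in TLR3wt replicate 3 (5.12).

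Pfkfb3, the HIF-inducible isozyme of Pfkfb2, had the widest difference of this list, and the groups overlapped. It was 5.16, 5.34 and 5.04 in TLR3-/- livers, against 6.43, 7.02 and 5.14 in TLR3wt livers. TLR3wt replicates 1 and 2 were high and TLR3wt replicate 3 lay inside the TLR3-/- range. The log2 difference was -1.02 (SE 0.45, limma adjusted p = 0.374), -1.55 without TLR3wt replicate 3 (limma adjusted p = 0.109) and -0.61 without TLR3wt replicate 2. Aldoc, which encodes the brain-type aldolase, overlapped (log2 difference -0.31, or -0.16 without TLR3-/- replicate 2), and the lactate dehydrogenase gene Ldha had a log2 difference of -0.03 (-0.10 to 0.08 without 1 mouse).

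Genes around pyruvate dehydrogenase, the target of Pdk1, had mostly higher means in TLR3-/- livers. Among 10 measured genes this held for 8, with a median log2 difference of 0.16, while 60.9% of all tested genes had higher means. By limma 0 passed (1 at an unadjusted p under 0.05, Pdp2, against 15.7% of all tested genes), and the groups were apart in 4, all with TLR3-/- higher, against 15.1% of all tested genes in that direction. These were Pdk4, Pdp2, Pdk2 and Pdha1, the last named after its value had been seen. Pdk4, a kinase gene induced by fasting in liver, was 6.32, 6.55 and 6.37 in TLR3-/- livers, against 5.47, 6.18 and 6.18 in TLR3wt livers (log2 difference 0.47, or 0.23 without TLR3wt replicate 1, limma adjusted p = 0.362 with all mice). Pdp2, the gene of an opposing phosphatase, was 6.03, 6.31 and 6.24 in TLR3-/- livers, against 5.94, 5.93 and 5.88 in TLR3wt livers (log2 difference 0.28, limma adjusted p = 0.227). Pdk2 and Pdha1 had log2 differences of 0.16 and 0.21, with the nearest livers of the groups 0.0063 apart in Pdk2. Without TLR3wt replicate 3 they were 0.11 and 0.10. Pdk3 was at the floor in all livers.

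Vessel growth genes and mitochondrial genes stayed close to the centre of all genes. Of 11 measured members of the VEGF family, their receptors and angiopoietins 5 had higher means and 6 lower in TLR3-/- livers (median -0.02, and -0.11 without TLR3-/- replicate 1). Vegfc was the 1 gene with an unadjusted p under 0.05 and with groups apart, at 5.13, 5.10 and 5.19 in TLR3-/- livers, against 5.27, 5.26 and 5.34 in TLR3wt livers (log2 difference -0.15, limma adjusted p = 0.306), near the floor. Of all tested genes, 5.56% had such a p and 7.62% had groups apart with TLR3-/- lower. The VEGF receptor gene Kdr had a log2 difference of 0.01 (-0.11 to 0.12 without 1 mouse), the coreceptor gene Nrp1 of 0.40 with overlap (0.15 without TLR3wt replicate 3), Flt1 of -0.11 and Vegfb of -0.10. Of 11 measured mitophagy and mitochondrial genes 9 had higher means, while 60.9% of all tested genes had (median 0.04 beside 0.03 over all tested genes, and -0.00 beside 0.01 after quantile normalisation again). An unadjusted p under 0.05 was found for 1, Pink1 with TLR3-/- higher, against 10.1% of all tested genes in that direction. The groups were apart in Pink1 and, with TLR3-/- lower, in Fam162a, against 15.1% and 7.62% of all tested genes. Pink1, a kinase that marks damaged mitochondria, was 8.42, 8.31 and 8.44 in TLR3-/- livers, against 8.21, 8.23 and 8.15 in TLR3wt livers (log2 difference 0.19, SE 0.06, limma adjusted p = 0.240). Fam162a was at -0.07, with 0.0001 between the groups, and Fundc1 at 0.16 (0.09 without TLR3-/- replicate 2) and Bnip3l at -0.07 overlapped. The Bnip3l probe set, and that of Higd1a, counted as higher, also have neighbours from another chromosome than the gene. Neither list had a gene that passed limma's adjusted p.

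Within the NDRG family the other measured genes had higher means in TLR3-/- livers, as 60.9% of all tested genes had. Ndrg2 was 11.65, 11.57 and 11.73 in TLR3-/- livers, against 11.50, 11.51 and 11.32 in TLR3wt livers (log2 difference 0.20, SE 0.08, limma adjusted p = 0.305), with all TLR3-/- livers higher. Ndrg3 overlapped (log2 difference 0.12, or 0.05 without TLR3wt replicate 3), and Ndrg4 was at the floor in all livers.

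**Figure D5:**
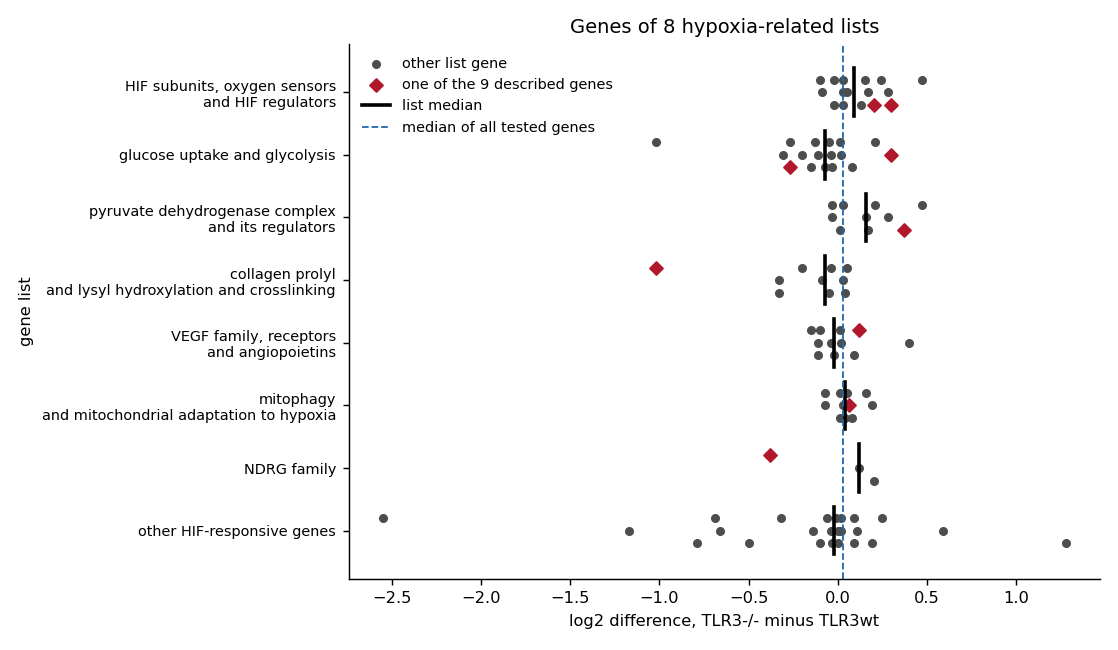
Log2 difference, TLR3-/- minus TLR3wt (horizontal axis), of each measured gene (points) in 8 hypoxia-related lists (rows), with the median of each list (black bar) and of all tested genes (dashed line at 0.03); red diamonds are genes followed by name. The lists are centred close to the dashed line, and the widest spread is among other HIF-responsive genes, with Igfbp1 at -2.55 and Ppp1r3c at 1.28.

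Other genes that respond to HIF in various cells pointed both ways. Of 24 measured genes 10 had higher and 14 lower means in TLR3-/- livers (median -0.02), while 39.1% of all tested genes had lower means. An unadjusted p under 0.05 was found for 2 with TLR3-/- higher and 6 lower, against 10.1% and 5.56% of all tested genes. The groups were apart in 2 with TLR3-/- higher and 4 lower, against 15.1% and 7.62%. By limma's adjusted p 1 passed, where 0.0870% of all tested genes did. Igfbp1, whose liver-made product binds insulin-like growth factors, was the 1 gene that passed limma in the lists considered here, at 7.95, 6.92 and 7.85 in TLR3-/- livers, against 10.12, 10.19 and 10.05 in TLR3wt livers (log2 difference -2.55, limma adjusted p = 0.0465). That call was lost in 10 of the 15 alternatives. The other genes named from this list were chosen after their values had been seen, first those with an unadjusted p under 0.05 and then 5 at or near the floor.

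Among these, Ppp1r3c, which encodes a subunit that targets protein phosphatase 1 to glycogen, was 7.92, 8.26 and 8.44 in TLR3-/- livers, against 6.43, 6.68 and 7.69 in TLR3wt livers. All TLR3-/- livers were higher (log2 difference 1.28, SE 0.34, limma adjusted p = 0.194), and TLR3wt replicate 3 was the nearest to them. Ankzf1, which acts in ribosome quality control, had groups apart as well (log2 difference 0.25). On the lower side, Hmox1, the haem-degrading enzyme gene, was 6.48, 6.36 and 6.48 in TLR3-/- livers, against 6.70, 7.30 and 7.31 in TLR3wt livers (log2 difference -0.66, limma adjusted p = 0.188). Macrophages also express Hmox1, and the part of the lower macrophage markers in its difference was not tested.

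Tfrc, the transferrin receptor gene, was 6.14, 7.78 and 6.57 in TLR3-/- livers, against 8.01, 8.18 and 7.79 in TLR3wt livers. TLR3-/- replicate 2 lay only 0.01 below the lowest TLR3wt liver (log2 difference -1.17, SE 0.41, limma adjusted p = 0.283). Ddit4, an inhibitor of mTORC1 signalling, was 5.33, 5.31 and 5.60 in TLR3-/- livers, against 5.68, 6.17 and 5.89 in TLR3wt livers (log2 difference -0.50, limma adjusted p = 0.216). Angptl4, which encodes an inhibitor of lipoprotein lipase, and Bhlhe40, a transcriptional repressor gene, overlapped between the groups, with log2 differences of -0.79 and -0.69. Bhlhe40 was at -0.41 without TLR3-/- replicate 3. Epo, Adm, Car9, Nos2 and Hilpda, known HIF targets in other tissues or cells, were at the floor on every array except Adm in TLR3wt replicate 2 (5.03).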

How the data were processed

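Each of the 6 livers was measured on its own array, and groups were taken from the sample titles. The authors deposited log2 values. The submitters' processing notes name RMA and Affymetrix Expression Console. RMA removes background, matches the distributions of the arrays and combines the probes of each set. The lowest deposited value was exactly 5 on each array, where 57.2% to 57.6% of the values stood, and what set it is not stated in the sources. A difference with values at this floor is understated. The table held 0 columns of other samples.

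Symbols of the array annotation were brought up to date by gene identifier with a RefSeq gene table (GRCm38.p6), in which 99.6% of the identifiers were found. Of 35557 probe sets, 21789 had 1 symbol, 1621 several and 12147 none. Of 248 listed names, 228 had a probe set of 1 symbol, and the others were not analysed here.

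The test was limma's (version 3.58.1, R 4.3.3), by lmFit and eBayes with 1 term for genotype. It was two-sided, adjusted after Benjamini and Hochberg, and read at 0.05. It left out 18918 probe sets that were at the floor throughout, because probe sets with no spread enter the common variance, and 16639 were tested. With 3 mice per group an exact permutation test cannot go below p = 0.1. The procedure was tested on simulated data. Alternatives covered the floor filter, normalisation, variance model, array weights, a replicate block, probe sets of 1 symbol and leaving out each mouse.

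The 10 genes and the lists were chosen with earlier results of these data known, and so was the floor filter. Named genes are the 10, their paralogs, in each list the passing genes or otherwise up to 3 by smallest unadjusted p, and the 5 most correlated with P4ha1. A few genes given only as values, such as those at the floor, markers and list members near the centre, were named outside this rule after their values were seen. Promoter sequences are from RefSeq, and binding motifs were matched as exact letters.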

Additional observations from a re-analysis of the deposited data

How the results depend on the processing

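Of the 9 measured genes 0 passed limma in any of the 15 alternatives, the replicate block included. Over all probe sets the count of 31 calls became 35 with trend and robust settings, 35 with array weights, 0 with all probe sets kept (2018 at an unadjusted p under 0.05), 18 with those above the floor on all arrays, 9 after quantile normalisation again, 14 after centring, 2 with the ordinary pooled-variance test, 4 with the replicate block, 1 with probe sets of 1 symbol, and 0 to 13 without 1 mouse (13 without TLR3wt replicate 3). After centring 8 were higher and 6 lower, against 23 and 8 as deposited. Deviations of same-numbered mice from their group means correlated at 0.05, -0.01 and -0.06, so the replicate numbers showed no shared effect over the tested probe sets. These values cannot show whether the mice were paired in another way, such as by litter. The cause of the shifts in the count was not tested.

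Directions held in 843 of 855 gene values under the alternatives, over 57 named genes, with the second Bnip3 probe set among the alternatives. Fits that changed only the probe sets kept, the variance model or the replicate block leave a gene's difference unchanged. They could not turn a direction, so the count overstates how far directions were tried. Leaving out 1 mouse turned Vegfa (-0.00 to 0.20), Ndrg1 (-0.65 to 0.03), Bnip3 (-0.00 to 0.18), P4ha2 (-0.17 to 0.04), P4hb (-0.00 to 0.08), Slc2a2 (-0.06 to 0.35), Epas1 (-0.16 to 0.00) and Vhl (-0.06 to 0.09), and quantile normalisation again or centring brought Arnt to -0.00, as these settings moved the median of all tested genes to 0.01 and 0.00 from 0.03. None of these 9 genes had passed the test. Genes given above but outside the 57 are not in this count. Among them Kdr (-0.11 to 0.12), Ldha (-0.10 to 0.08), Cd163 (-0.30 to 0.47), Elob (-0.06 to 0.03), Hk1 (-0.00 to 0.15) and Higd1a (-0.02 to 0.13) also turned without 1 mouse. P4ha1 kept its direction in all 15, with differences of -1.23 to -0.74 without 1 mouse and a limma adjusted p of 0.132 to 0.481 over the alternatives. Its groups did not overlap, so leaving out 1 mouse could not turn its direction either. The number of mice, and the floor for Ankrd37, limit what could be detected.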
